A study of Homo sapiens with 21 samples.

Results

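Protein kinase A (PKA) subunits, CREB transcription factors and salt-inducible kinases (SIKs) were followed in HepG2 cells, an established human hepatoblastoma line, after exposure to caffeine. The set held 10 genes named by symbol: PRKACA, PRKACB, PRKAR1A, PRKAR2A, CREB1, CREM, CRTC2, SIK1, SIK2 and SIK3. All 10 were found among the 37637 features of the count table, and all 10 were among the 17951 features that passed the filter on low counts. Cells were kept in serum-free DMEM for 24 h with caffeine at 0.01, 0.1, 1, 10, 100 or 1000 µM, or without caffeine (control, 0 µM). Each of the 7 groups had 3 libraries described as biological replicates, and RNA was selected with poly(dT) beads. All groups, the control included, thus shared the cell line, the serum-free medium and the exposure time. The question was how the transcripts of this pathway change with the dose of caffeine.

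PKA is a tetramer of regulatory and catalytic subunits, and binding of cyclic AMP (cAMP) to the regulatory subunits frees the catalytic ones. Free catalytic subunits phosphorylate CREB, which binds cAMP response elements (CREs) in promoters, and they also phosphorylate and inhibit SIKs. SIKs in turn hold the CRTC coactivators in the cytoplasm, so that their inhibition lets CRTC2 enter the nucleus and act with CREB on fasting genes of the liver such as PCK1 and G6PC1. Caffeine is known as an adenosine receptor antagonist and, at high concentrations, as an inhibitor of cAMP phosphodiesterases.

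Library totals ran from 23502519 to 44815552 counts. Clustering of the libraries on 13 mitochondrial mRNAs gave 3 sets that did not follow the dose alone. The summed share of mitochondrial counts set apart only set B, since the range of set C lay within that of set A. Set A held 11 libraries with 9.95 to 14.2% mitochondrial counts, namely all control, 0.01 and 0.1 µM libraries and replicates 1 and 2 of 1 µM. Set B held 7 libraries with 4.72 to 4.94%, namely replicate 3 of 1 µM, all 10 µM libraries, replicate 2 of 100 µM and replicates 1 and 2 of 1000 µM. Set C held 3 libraries with 11.8 to 12.8%, namely replicates 1 and 3 of 100 µM and replicate 3 of 1000 µM. No control was in set B or C and no library at 10, 100 or 1000 µM in set A, so set and dose overlap in every comparison of these doses with control. Values fitted with the set as a term are given beside the others. Against control at these doses they rest on 1 library, replicate 3 of 1 µM, which alone links set A to the other sets; without it, set and dose cannot be told apart there. The 9 hepatocyte markers summed to 34640 to 42830 CPM (counts scaled by library size) in control and to 28170 to 29540 CPM at 1000 µM. The 6 measured markers of leukocytes, fibroblasts and endothelium summed to 3.34 to 3.94 CPM in control and 18.3 to 23.7 CPM at 1000 µM. Nearly all of that sum was PDGFRB, a fibroblast receptor at 2.98 to 23.5 CPM, while CD3E had 0 counts, PTPRC at most 1, COL1A1 and COL3A1 at most 2 and CDH5 at most 6 in any library. The part of these marker differences in the results was not tested.

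Scaled by exon length (CPM per kilobase), PRKAR1A was the most abundant transcript of the set in control cells, at 50.5 ± 1.89 CPM per kilobase (SD, n = 3). CRTC2 (10.6 ± 1.33), PRKACA (9.86 ± 0.764), PRKAR2A (9.04 ± 0.431) and SIK1 (8.52 ± 1.66) followed, with overlapping ranges between neighbours in this order. CREM stood at 6.41 ± 0.491, SIK2 at 4.02 ± 0.156, SIK3 at 2.93 ± 0.277, CREB1 at 2.91 ± 0.299 and PRKACB at 2.12 ± 0.350 CPM per kilobase, where SIK3 and CREB1 differed by less than their spread. Every gene of the set was therefore expressed in untreated cells, and PRKAR1A, which encodes the type I regulatory subunit, stood well above the others.

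Because CREB acts through CREs, the 250 bases before each RefSeq start site (assembly GRCh38.p14) were searched for these elements. In all, 9 of the 10 genes had promoter entries, with 24 start sites between them; CRTC2 had none. The full CRE TGACGTCA lay in 1.65% of all 35116 promoter windows, the relaxed form TGANGTCA, on either strand, in 6.87%, and the short form TGACG, on either strand, in 21.2%; a full CRE counts as 1 relaxed form and as 2 overlapping short forms. Among the 24 windows of the set, 2 held a full CRE (one of PRKAR1A and one of CREM), 6 a relaxed form (PRKAR1A, CREM and SIK3) and 9 a short form. The windows of CREM start sites 6 and 7 overlap and hold the same relaxed element, which counts in both. Counted by gene, 2 of the 9 had a full CRE and 3 a relaxed form, against 2.03% and 8.29% of 27305 genes. By gene, 7 of the 9 (CREM, PRKACA, PRKACB, PRKAR1A, SIK1, SIK2 and SIK3) had a short form in at least 1 window, against 24.9% of 27305 genes, although genes with many start sites have more chances. The letters TGACG did not occur in the windows of CREB1 and PRKAR2A. A match describes the sequence only. The stretches below are printed because they show the elements of the genes described next, with each match in capitals, 5′ to 3′ on the strand of the gene, from GRCh38.p14: PRKAR1A (plus strand, chr17:68512361-68512408), CREM at 2 internal start sites (plus strand, chr10:35195054-35195112 and chr10:35195756-35195879), PRKACA (minus strand, chr19:14117787-14117831), SIK1 (minus strand, chr21:43427233-43427368) and SIK3 (minus strand, chr11:117098481-117098631).
PRKAR1A: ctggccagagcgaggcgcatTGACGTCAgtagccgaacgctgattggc
CREM, start site 5: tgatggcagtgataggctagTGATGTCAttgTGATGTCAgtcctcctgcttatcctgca
CREM, start site 7: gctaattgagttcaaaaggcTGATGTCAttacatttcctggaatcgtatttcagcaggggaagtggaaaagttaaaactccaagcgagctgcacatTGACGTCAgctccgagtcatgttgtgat
PRKACA: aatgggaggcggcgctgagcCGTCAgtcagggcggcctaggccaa
SIK1: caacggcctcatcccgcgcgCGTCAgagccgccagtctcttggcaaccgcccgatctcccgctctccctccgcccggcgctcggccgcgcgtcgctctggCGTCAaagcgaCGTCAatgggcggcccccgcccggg
SIK3: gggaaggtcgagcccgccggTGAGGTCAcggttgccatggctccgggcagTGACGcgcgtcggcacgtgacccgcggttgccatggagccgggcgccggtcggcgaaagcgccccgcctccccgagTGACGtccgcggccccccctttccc

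The genes responded mainly to 100 and 1000 µM. A gene was called when edgeR's quasi-likelihood test gave an adjusted p under 0.05 over all 17951 features. At 0.01, 0.1 and 1 µM none of the 10 genes was called, where 0.0279%, 0% and 0.106% of all features were; at each of these doses 1 gene, PRKACB, had an unadjusted p under 0.05, as did 15%, 9.48% and 15.7% of all features. At 10 µM 2 genes were called, PRKAR2A higher and CREM lower, against 14.8% of all features. At 100 µM 6 genes were called against 46.6% of all features, 2 of them higher (23.6% of features) and 4 lower (22.9%). At 1000 µM 8 genes were called against 57.6% of all features, 5 of them higher (28.5%) and 3 lower (29.1%). The joint test over all doses called all 10 genes, against 73.6% of all features. Large parts of the whole table thus differed at the 2 highest doses, and the counts over 10 genes are read beside those shares and not as particular to the set. The median size of the log2 change at 1000 µM was 0.62 over the 10 genes and 0.55 over all features.

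With the library set as a term, 0 of the 10 genes were called at 10 µM (0.0279% of all features), 4 at 100 µM (17.3%), 7 at 1000 µM (38%) and 9 in the joint test (59.8%), where SIK1 was not called. The 2 calls at 10 µM therefore could not be told apart from the difference between library sets, and both were also lost without replicate 3 of 10 µM (adjusted p = 0.0528 for PRKAR2A and 0.0511 for CREM). The 4 genes called at 100 µM with this term were PRKAR2A, CREB1, CREM and CRTC2, and at 1000 µM PRKACA, PRKAR1A, CREB1, CREM, CRTC2, SIK2 and SIK3. Between the library sets themselves, given the dose, 0 of the 10 genes were called for set B against set A (6.57% of all features) and 1, PRKAR1A, for set C against set A (5.97%). For set C against set B, a comparison added after the values were seen, 4 were called against 26.9% of all features. These were PRKACA (0.54, adjusted p = 4.45e-05) and CRTC2 (0.64, adjusted p = 0.00039), higher in set C, and PRKAR1A and SIK1 (-0.88, adjusted p = 0.00217), lower in set C.

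**Figure D1:**
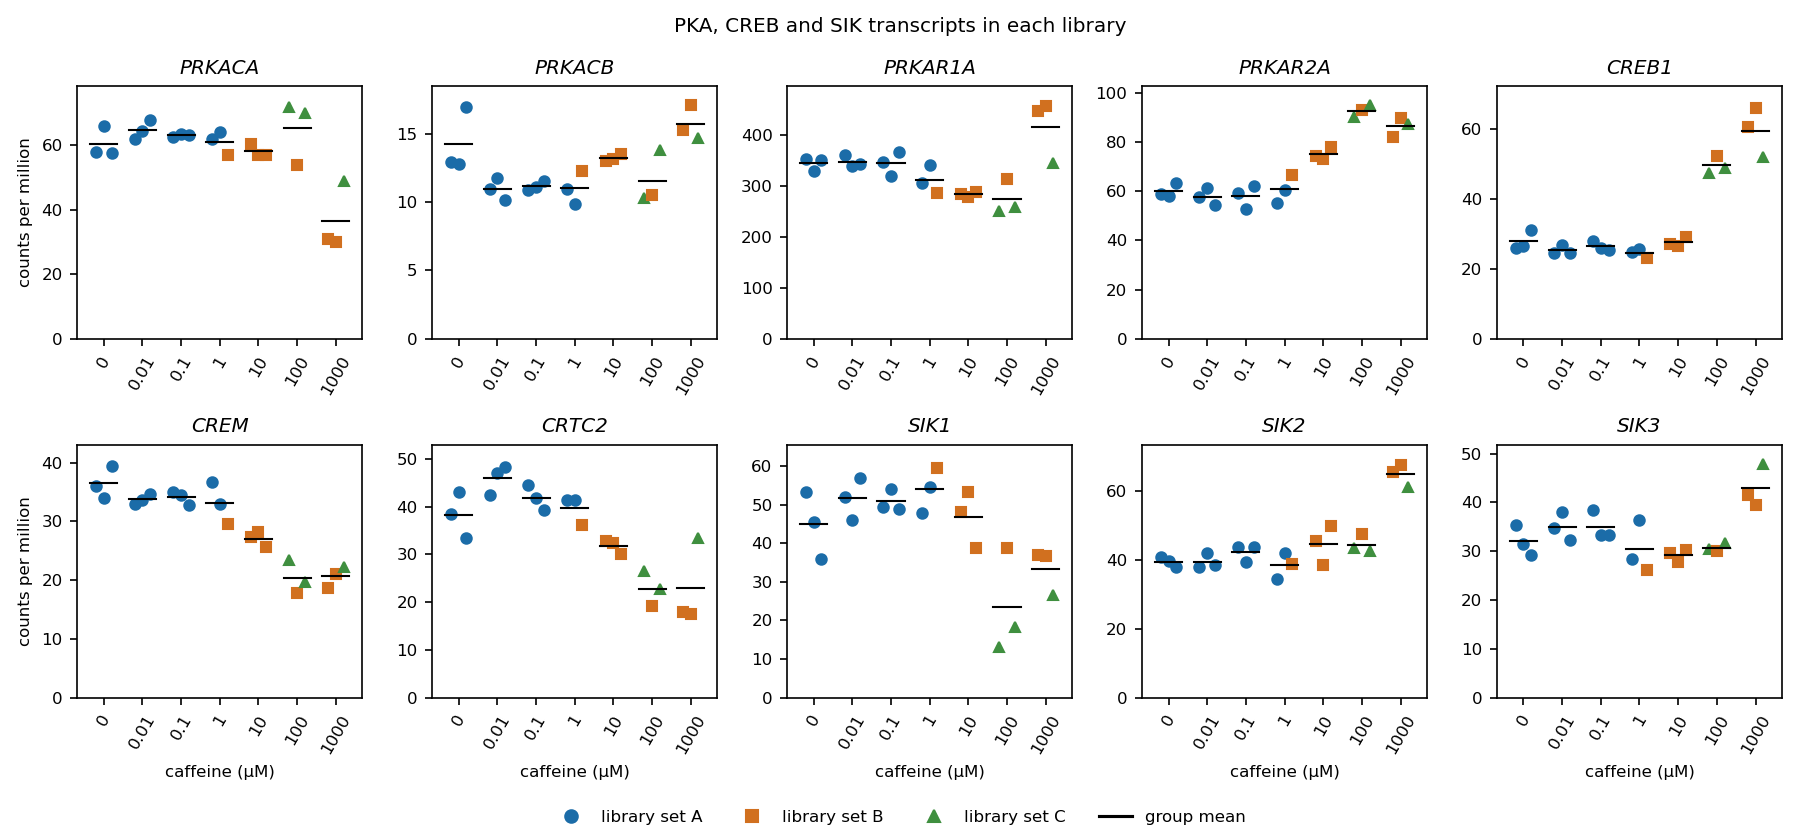
CPM (y axis, linear from 0) of the 10 genes in each of the 21 libraries by caffeine dose (x axis, µM); symbols give the library set and black bars the group mean. SIK2 and SIK3 stand above all other groups at 1000 µM, CREB1 is high at 100 and 1000 µM, CREM and CRTC2 are low at 100 µM, and the set C library at 1000 µM lies nearer to control than the other 2 for PRKACA, PRKAR1A, CREB1 and CRTC2.

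The catalytic subunit PRKACA fell at 1000 µM. PRKACA encodes Cα, the main catalytic subunit of PKA in most tissues, and lies at chr19:14091688-14118084 (minus strand, GRCh38). Its level was 57.9, 66.0 and 57.8 CPM in the control libraries and 57.2 to 67.9 CPM over the 9 libraries at 0.01 to 1 µM. It was 60.5, 57.1 and 57.0 CPM at 10 µM, 71.9, 53.9 and 70.1 CPM at 100 µM, and 30.8, 29.97 and 49.0 CPM at 1000 µM. All 3 libraries at 1000 µM lay below all control libraries, with the set C library the least reduced. The log2 fold change at 1000 µM was -0.73 ± 0.14 (standard error; adjusted p = 0.00021), a fall to 0.603 of the control level, and -0.80 with the library set as a term (adjusted p = 8.58e-05). At 100 µM the 2 set C libraries were high and the set B library low, and the log2 difference from control was 0.11 ± 0.14 (adjusted p = 0.557), and -0.12 with the set as a term (adjusted p = 0.625).

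PRKACB, which encodes the Cβ catalytic subunit (chr1:84078062-84238498, plus strand), was less abundant. It measured 12.9, 12.8 and 17.0 CPM in control, 9.86 to 12.3 CPM over the 9 libraries at 0.01 to 1 µM, and 13.0, 13.2 and 13.5 CPM at 10 µM. The libraries at 100 µM gave 10.3, 10.5 and 13.9 CPM and those at 1000 µM 15.3, 17.1 and 14.7 CPM. Control replicate 3 was nearly as high as the highest library at 1000 µM, so these groups overlapped. The log2 difference of 0.15 ± 0.12 did not pass the test (adjusted p = 0.327), and it was -0.10 with the set as a term (adjusted p = 0.746). Between 100 and 1000 µM PRKACB rose by 0.45 ± 0.12 on the log2 scale (adjusted p = 0.00689). The difference at 100 µM from control, -0.30 ± 0.13, had an adjusted p of 0.0551. It was -0.57 with the set as a term (adjusted p = 0.0974), and -0.45 without replicate 3 of 100 µM (adjusted p = 0.00913).

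Both regulatory subunits rose at the highest dose, by less than CREB1 did. PRKAR1A encodes RIα, the type I regulatory subunit, and lies at chr17:68511780-68551319 (plus strand). Its level was 352, 329 and 351 CPM in control, 286 to 367 CPM at 0.01 to 1 µM, and 284, 279 and 288 CPM at 10 µM. At 100 µM it was 250, 313 and 258 CPM and at 1000 µM 447, 458 and 344 CPM. The 2 set B libraries at 1000 µM lay above all controls, whereas the set C library lay within the control range. Its log2 fold change was 0.27 ± 0.10 at 1000 µM (adjusted p = 0.0299), and this call was lost without control replicate 1 or 2, or without replicate 1 or 2 of 1000 µM (adjusted p between 0.0531 and 0.15). Fitted beside the library sets the value was 0.56 (adjusted p = 0.000923). Given the dose, PRKAR1A was lower in set C than in set A, at -0.53 (adjusted p = 0.0108), and than in set B, at -0.35 (adjusted p = 0.000886). At 100 µM, where 2 of 3 libraries were of set C, its fall of -0.33 ± 0.10 (adjusted p = 0.0139) became 0.08 (adjusted p = 0.736) with the set as a term, and without replicate 1 or 3 of 100 µM it was not called (adjusted p = 0.073 and 0.0619).

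PRKAR2A encodes RIIα, the type II subunit that binds A-kinase anchoring proteins (chr3:48744597-48847846, minus strand). It measured 59.0, 58.0 and 63.4 CPM in control, 53.0 to 66.5 CPM at 0.01 to 1 µM, and 74.5, 73.2 and 77.9 CPM at 10 µM. At 100 µM it stood at 90.2, 93.3 and 94.9 CPM and at 1000 µM at 82.1, 89.9 and 87.4 CPM. All 9 libraries from 10 µM upwards were above all 12 libraries at lower doses. None of the 9 was of set A, however, and the highest of the 12 was the set B library at 1 µM (66.5 CPM). At 100 and 1000 µM sets B and C gave like values. The log2 fold changes were 0.32 ± 0.08 at 10 µM (adjusted p = 0.0127), 0.63 ± 0.08 at 100 µM (adjusted p = 3.79e-06) and 0.53 ± 0.08 at 1000 µM (adjusted p = 1.5e-05). With the set as a term they were 0.13 (adjusted p = 1), 0.43 (adjusted p = 0.0415) and 0.33 (adjusted p = 0.0603). PRKAR2A was thus not called at 1000 µM in that fit.

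The balance of subunit transcripts moved accordingly. Summed per length, regulatory (PRKAR1A and PRKAR2A) over catalytic (PRKACA and PRKACB) transcripts gave a ratio of 4.99 ± 0.429 (SD, n = 3) in control. At 1000 µM the ratio was 10.7 and 10.9 in the set B libraries and 6.26 in the set C library, all above the highest control of 5.34. At 100 µM it was 3.79 and 3.87 in the set C libraries and 5.80 in the set B library, on both sides of the controls. The ratio of PRKACA to PRKACB per length was 4.76 ± 0.957 in control and 2.21, 1.92 and 3.64 at 1000 µM, below the lowest control of 3.74 in all 3 libraries. These ratios are descriptions of transcripts, since the active kinase depends on the proteins and on cAMP.

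**Figure D2:**
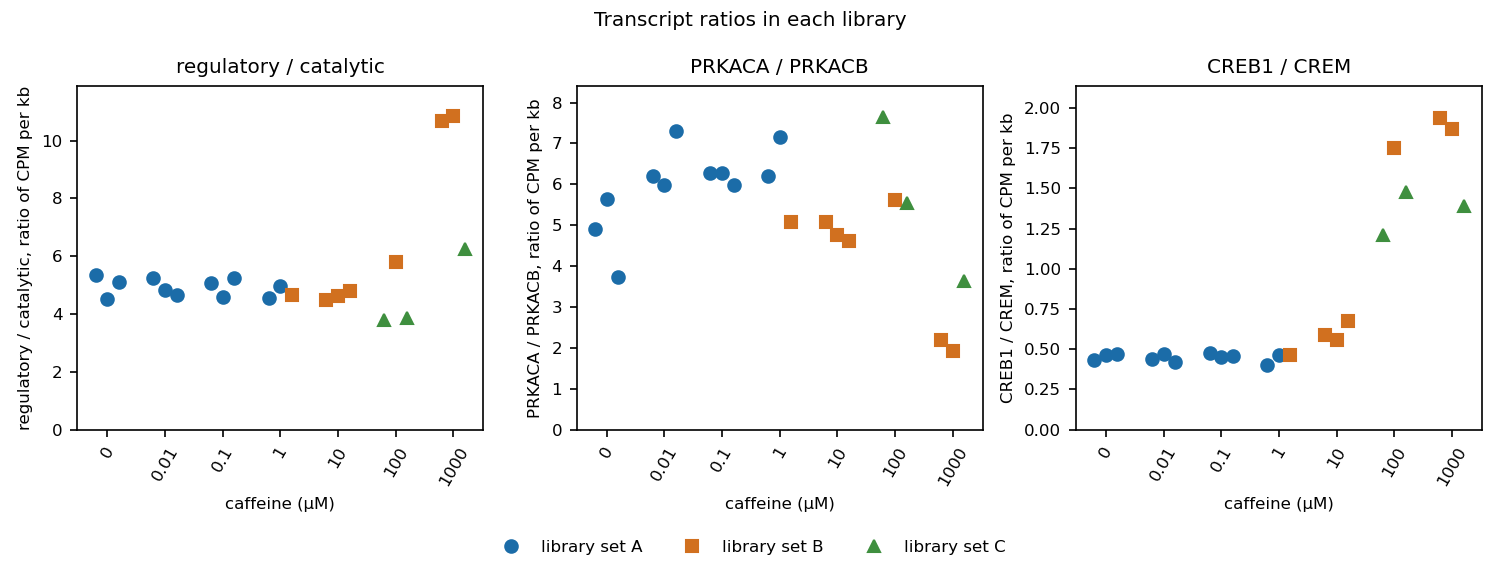
Ratios of CPM per kilobase (y axes, linear from 0) in each library by caffeine dose (x axis, µM), with symbols for the library set: regulatory over catalytic PKA subunits, PRKACA over PRKACB, and CREB1 over CREM. At 1000 µM the regulatory to catalytic ratio reaches 10.7 and 10.9 in the set B libraries and 6.26 in that of set C. CREB1 over CREM runs from 0.430 to 0.469 in control, 1.21 to 1.75 at 100 µM and 1.39 to 1.94 at 1000 µM.

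CREB1 rose and CREM fell, and both had done so at 100 µM. CREB1 encodes the activator CREB and lies at chr2:207529737-207603431 (plus strand). Its level was 26.0, 26.5 and 31.2 CPM in control, 23.1 to 28.0 CPM at 0.01 to 1 µM, and 27.0, 26.5 and 29.2 CPM at 10 µM. It was 47.6, 52.3 and 49.0 CPM at 100 µM and 60.7, 66.1 and 51.9 CPM at 1000 µM. Every library at 100 and 1000 µM was above every library at lower doses, whichever its set. Log2 fold changes were 0.83 ± 0.095 at 100 µM (1.78-fold; adjusted p = 9.77e-07) and 1.10 ± 0.095 at 1000 µM (2.14-fold; adjusted p = 1.04e-08). With the set as a term these values were 1.09 (adjusted p = 8.85e-05) and 1.28 (adjusted p = 2.23e-06). The step from 100 to 1000 µM was 0.26 ± 0.09 (adjusted p = 0.0281), and 0.19 with the set as a term (adjusted p = 0.07). That step was not called without replicate 1 or 3 of 100 µM, or replicate 1 or 2 of 1000 µM (adjusted p between 0.0793 and 0.17).

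CREM encodes activator and repressor isoforms, among them the inducible repressor ICER that starts at an internal promoter; gene counts add all of them together. The gene lies at chr10:35126791-35212958 (plus strand). It measured 36.0, 34.0 and 39.5 CPM in control, 29.6 to 36.7 CPM at 0.01 to 1 µM, and 27.4, 28.2 and 25.7 CPM at 10 µM. At 100 µM it was 23.4, 17.8 and 19.8 CPM and at 1000 µM 18.6, 21.1 and 22.2 CPM. All 9 libraries from 10 µM upwards were below all 12 others, although the 10 µM libraries lay close to the set B library at 1 µM (29.6 CPM). The log2 fold changes were -0.43 ± 0.10 at 10 µM (adjusted p = 0.0111), -0.85 ± 0.10 at 100 µM (adjusted p = 2.38e-06) and -0.82 ± 0.10 at 1000 µM (adjusted p = 1.48e-06). With the set as a term they were -0.20 (adjusted p = 1), -0.77 (adjusted p = 0.00221) and -0.67 (adjusted p = 0.00164). CREM thus had its lowest levels at 100 and 1000 µM, where the 2 doses differed by 0.02 ± 0.10 (adjusted p = 0.878). Per length, the CREB1 to CREM ratio was 0.454 ± 0.0209 (SD, n = 3) in control, 1.48 ± 0.271 at 100 µM and 1.73 ± 0.299 at 1000 µM. The size of this ratio depends on the exon lengths used, so it does not show which gene is the more abundant.

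CRTC2, the CREB coactivator of the liver that SIKs phosphorylate (chr1:153947669-153958625, minus strand), fell at the 2 highest doses. Control libraries gave 38.5, 43.0 and 33.4 CPM, those at 0.01 to 1 µM 36.2 to 48.4 CPM, and those at 10 µM 32.8, 32.4 and 30.1 CPM. The level was 26.4, 19.1 and 22.8 CPM at 100 µM and 18.0, 17.5 and 33.3 CPM at 1000 µM. The set C library at 1000 µM was thus at the lowest control, while the 2 set B libraries were below every control. CRTC2 had log2 fold changes of -0.76 ± 0.18 at 100 µM (adjusted p = 0.00219) and -0.75 ± 0.18 at 1000 µM (adjusted p = 0.00167), and -0.98 (adjusted p = 0.00203) and -0.81 (adjusted p = 0.00248) with the set as a term. Without replicate 3 of 1000 µM, CRTC2 was lower at 1000 than at 100 µM by a log2 difference of -0.36 (adjusted p = 0.0251), against 0.01 (adjusted p = 0.972) with it.

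The 3 SIKs did not move alike: SIK2 and SIK3 rose at 1000 µM, whereas SIK1 counts were lowest in the 2 set C libraries at 100 µM. SIK2 is a kinase that phosphorylates CRTC2 (chr11:111602391-111730853, plus strand). It measured 40.9, 39.5 and 37.8 CPM in control, 34.4 to 43.6 CPM at 0.01 to 1 µM and 45.3, 38.5 and 49.8 CPM at 10 µM. At 100 µM it was 43.3, 47.3 and 42.5 CPM and at 1000 µM 65.4, 67.5 and 61.2 CPM. Only the 1000 µM libraries stood apart from all others, set C included. The log2 fold change at 1000 µM was 0.72 ± 0.10 (1.64-fold; adjusted p = 3.22e-06), and 0.74 with the set as a term (adjusted p = 0.00165). Against 100 µM it was 0.54 ± 0.10 (adjusted p = 0.000137).

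SIK3, the third kinase of the family (chr11:116843402-117098437, minus strand), also rose at 1000 µM. Its level was 35.3, 31.5 and 29.3 CPM in control, 26.2 to 38.4 CPM at 0.01 to 1 µM, 29.7, 27.9 and 30.3 CPM at 10 µM and 30.5, 30.1 and 31.7 CPM at 100 µM. At 1000 µM it was 41.5, 39.6 and 47.8 CPM, above every other library. SIK3 had a log2 fold change of 0.42 ± 0.11 (adjusted p = 0.00358), and 0.68 with the set as a term (adjusted p = 0.00571).

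SIK1 is the family member that cAMP is known to induce through CREB, and its gene lies at chr21:43414483-43427189 (minus strand). The table gave it 53.3, 45.6 and 35.9 CPM in control, 46.2 to 59.5 CPM at 0.01 to 1 µM and 48.1, 53.3 and 38.7 CPM at 10 µM. At 100 µM it was 13.2, 38.7 and 18.3 CPM and at 1000 µM 36.9, 36.6 and 26.7 CPM. The 2 set C libraries at 100 µM were far below the set B library of the same dose, which lay within the control range. The log2 fold change was -0.93 ± 0.27 at 100 µM (adjusted p = 0.0104), -0.68 with the set as a term (adjusted p = 0.174) and -0.78 without replicate 3 of 100 µM (adjusted p = 0.0522). At 1000 µM it was -0.43 ± 0.27 (adjusted p = 0.188), and -0.43 (adjusted p = 0.0293) without replicate 2 of 100 µM.

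These SIK1 values are uncertain because GRCh38 holds a near-identical copy, SIK1B (chr21:6111134-6123739, plus strand). Of the 4706 windows of 100 bases in the 4805-base SIK1 transcript of GENCODE 29, 86.8% occur unchanged in the SIK1B transcript, so reads can be assigned to either. SIK1B took 0 to 675 counts per library and SIK1 351 to 2220. The copy's share of their summed counts was 7.33 to 14.0% in control, 0% in replicate 3 of 1 µM, 52.0 and 41.5% in the set C libraries at 100 µM, 7.12% in the set B library there, and 28.9 to 37.8% at 1000 µM. Adding the 2 genes, an alternative chosen after their counts were seen, gave 57.5, 52.8 and 41.7 CPM in control, 27.4, 41.6 and 31.3 CPM at 100 µM and 54.1, 51.5 and 43.0 CPM at 1000 µM. The sum thus lay within the control range in all 3 libraries at 1000 µM and below it at 100 µM, the set B library only just. Its log2 fold change was -0.60 ± 0.13 at 100 µM (adjusted p = 0.00103), and -0.45 with the set as a term (adjusted p = 0.0947). At 1000 µM it was -0.03 ± 0.13 (adjusted p = 0.843), and from 100 to 1000 µM the sum rose by 0.56 ± 0.13 (adjusted p = 0.00173; 0.44 and adjusted p = 0.00115 with the set as a term). SIK1 itself gave 0.50 ± 0.27 for that step (adjusted p = 0.15), and 1.09 (adjusted p = 0.000186) without replicate 2 of 100 µM. Within set B the step was -0.11 for SIK1 and 0.31 for the sum. There 100 µM had 1 library, so the spread at that dose is not known.

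**Figure D3:**
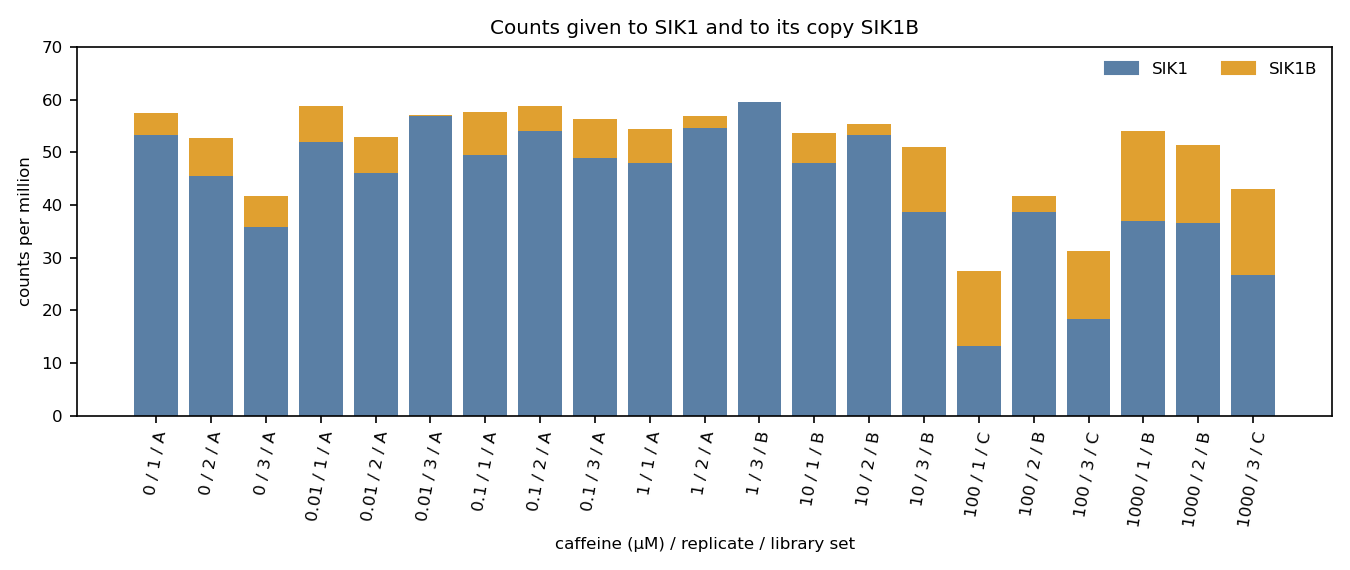
Stacked CPM (y axis, from 0) counted to SIK1 and to its copy SIK1B in each of the 21 libraries, labelled by dose in µM, replicate and library set (x axis). The summed bars at 1000 µM (43.0 to 54.1 CPM) are within the control range of 41.7 to 57.5 CPM, while the 2 set C bars at 100 µM (27.4 and 31.3 CPM) are lower, with 52.0 and 41.5% of the sum on SIK1B.

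Set B offered a comparison of 1000 with 10 µM among libraries of like mitochondrial share (2 and 3 libraries). Over all libraries 8 of the 10 genes were called between these doses, against 52.1% of all features, 5 higher (26.1%) and 3 lower (26%), and 6 to 9 with 1 library left out. The same 8 were called with the set as a term, where 59.1% of all features were. Within set B alone, all 10 were called, against 65.1% of the 18323 features tested there, 6 higher (31.5%) and 4 lower (33.6%). CREB1 (1.17 ± 0.07), PRKAR1A (0.64 ± 0.05), SIK2 (0.54 ± 0.10), SIK3 (0.44 ± 0.06), PRKACB (0.26 ± 0.08) and PRKAR2A (0.16 ± 0.06) had higher log2 values at 1000 µM within set B. PRKACA (-0.97 ± 0.06), CRTC2 (-0.87 ± 0.07), CREM (-0.49 ± 0.08) and SIK1 (-0.38 ± 0.13) had lower ones, with adjusted p between 1.25e-08 for CREB1 and 0.0421 for SIK1. With SIK1B added, the SIK1 value in set B was -0.05 ± 0.06 (adjusted p = 0.478); the summed SIK1 was thus not called there.

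From 100 to 1000 µM, 6 of the 10 genes were called, against 44% of all features, 5 higher (21.8%) and 1 lower (22.3%). PRKACA was the gene that fell, by a log2 difference of -0.84 ± 0.14 (adjusted p = 9.32e-05), and PRKAR1A (0.60 ± 0.10), SIK2, SIK3 (0.48 ± 0.11), PRKACB and CREB1 rose. With the set as a term 46.3% of all features were called. In that fit PRKACA (-0.68, adjusted p = 4.68e-07), PRKAR1A (0.485, adjusted p = 8.72e-06), SIK2, SIK3 and PRKACB kept their calls, and CREB1 did not (0.19, adjusted p = 0.07). CREM, CRTC2 and PRKAR2A (-0.10 ± 0.08, adjusted p = 0.316) had moved from control at 100 µM already and were not called for this step. Against control, without the set term, CREB1, CRTC2 and PRKAR1A were called at 100 and 1000 µM, PRKAR1A in opposite directions, and CREM and PRKAR2A at 10 µM as well. SIK1 was called at 100 µM only, PRKACA, SIK2 and SIK3 at 1000 µM only, and PRKACB at no dose.

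**Figure D4:**
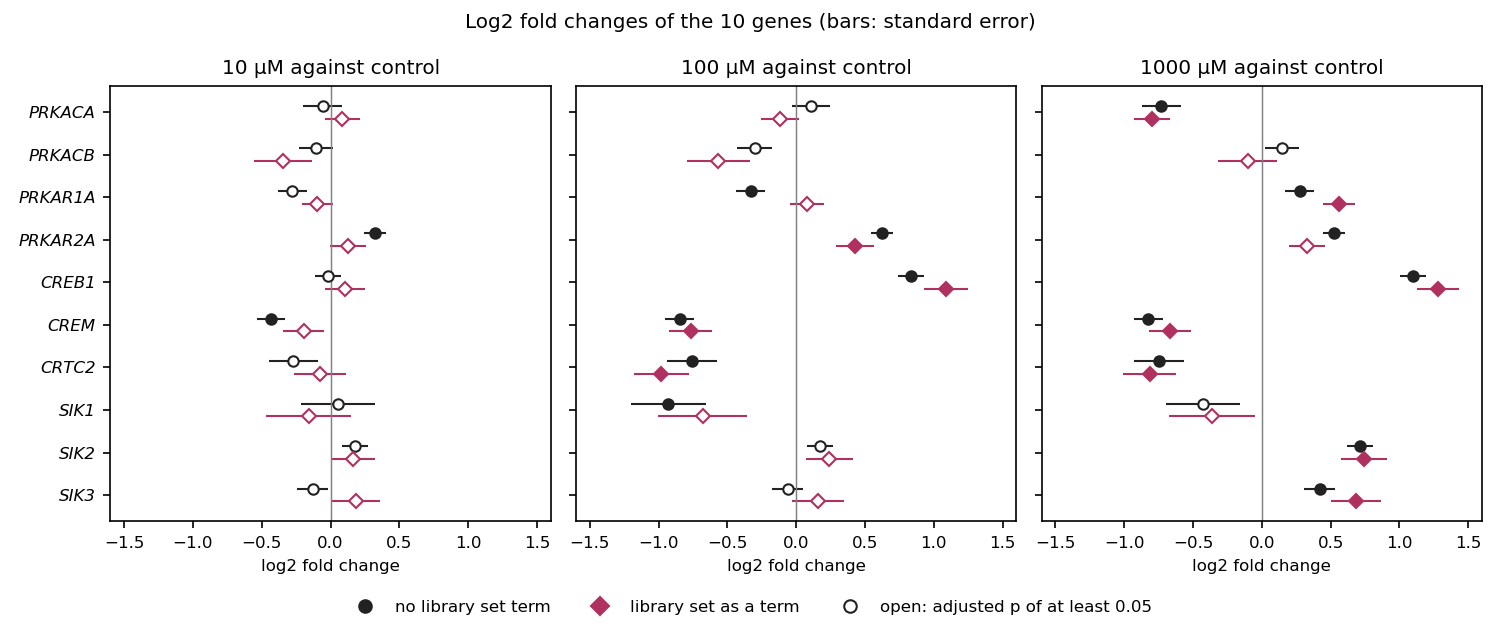
Log2 fold changes against control (x axis) of the 10 genes (y axis) at 10, 100 and 1000 µM, with bars of 1 standard error; circles are from the fit without, and diamonds from the fit with, the library set as a term, and open symbols did not pass an adjusted p of 0.05. CREB1 is the highest at 1000 µM (1.10), and the 2 calls at 10 µM, PRKAR2A and CREM, are open with the set as a term.

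The rest of the pathway was read from 74 further genes in 10 role classes (SIK1B among them), of which 71 were in the table and 57 were tested. At 1000 µM 35 of the 57 were called, 19 higher and 16 lower, against the 57.6% of all features given above. At 100 µM 24 were called (13 higher, 11 lower; 46.6% of all features) and at 10 µM 11 (4 higher, 7 lower; 14.8% of all features). None was called at 0.01, 0.1 and 1 µM, where 15, 10 and 11 of the 57 had an unadjusted p under 0.05, against 15%, 9.48% and 15.7% of all features. With the set as a term, 26 were called at 1000 µM (38% of all features), 10 at 100 µM (17.3%) and 5 at 0.01 µM (3.02%). At 10, 1 and 0.1 µM 0 were called (0.0279%, 0.629% and 0.0223% of all features). The 26 include SIK1B at a log2 value of 11.4 ± 3.93 (adjusted p = 0.0369), against 1.48 ± 0.96 (adjusted p = 0.2) without the term. SIK1B had 0 counts in replicate 3 of 1 µM, the library that links set A to the other sets. The median log2 fold change of the list at 1000 µM was 0.06, against -0.01 over all features.

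Upstream of PKA, 3 of 7 G protein and adenylyl cyclase genes were called at 1000 µM, 1 higher and 2 lower, against 57.6% of all features (28.5% higher and 29.1% lower). In the fit with the set term 2 were called, GNAI2 and GNAS, both lower, against 38% of all features; GNAS was not called without that term. GNAI2, the inhibitory G protein subunit αi2, fell from 138 ± 16.4 CPM (SD, n = 3) in control to 43.5, 41.8 and 61.8 CPM, a log2 change of -1.49 ± 0.14 (adjusted p = 4.6e-08; -1.16 with the set as a term). ADCY6, an adenylyl cyclase that PKA and Gαi inhibit, rose by 0.65 ± 0.16 (adjusted p = 0.00195), and the cyclase ADCY9 fell by 0.42 on the log2 scale (adjusted p = 0.00305); neither was called with the set as a term. Both PKA inhibitor peptides that were tested were called, as were 57.6% of all features, PKIB higher (0.73 ± 0.22, at 1.18 ± 0.0820 CPM in control) and PKIG lower (-0.45 ± 0.12), and neither with the set as a term (adjusted p = 0.431 and 0.166). Of the other PKA subunits only the mainly neuronal type I subunit PRKAR1B passed the filter; at 100 µM it was called higher with an adjusted p just under the threshold (0.26 ± 0.11), but not with the set as a term (0.22, adjusted p = 0.514). At 1000 µM it was not called (-0.16 ± 0.11).

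Among 10 A-kinase anchoring proteins (AKAPs), which tether PKA to sites in the cell, 4 were higher and 2 lower at 1000 µM (57.6% of all features were called), and 3 and 1 with the set as a term (38%). AKAP12, a scaffold at the plasma membrane, rose from 47.7 ± 0.481 CPM in control to 200.3, 212 and 165 CPM, a log2 change of 2.01 ± 0.11 (adjusted p = 1.64e-11; 2.24 with the set as a term). AKAP10 (0.77 ± 0.09) and the centrosomal and Golgi scaffold AKAP9 (0.76 ± 0.12) also rose, while the nuclear AKAP8 (-0.47 ± 0.08) and the mitochondrial AKAP1 (-0.42 ± 0.11) fell. With the set term the values were 0.76, 0.66 and -0.48 for AKAP10, AKAP9 and AKAP8, all called, and 0.06 (adjusted p = 0.811) for AKAP1. The cAMP sensors outside PKA, RAPGEF3 (EPAC1) and RAPGEF4 (EPAC2), fell: RAPGEF3 from 6.85 ± 1.73 CPM to 2.42, 3.12 and 2.20 CPM (log2 change -1.41 ± 0.19, adjusted p = 2.73e-06; -1.68 with the set as a term) and RAPGEF4 from 0.610 ± 0.0636 CPM to 0.128, 0.0354 and 0.124 CPM (-2.60 ± 0.48, adjusted p = 0.000136). The RAPGEF4 value was -3.64 with the set as a term (adjusted p = 0.000331), but its levels lay near the floor of counting. Both genes were lower at 100 µM already, with log2 changes of -1.47 ± 0.19 for RAPGEF3 (adjusted p = 3.71e-06) and -1.10 ± 0.41 for RAPGEF4 (adjusted p = 0.0349). With the set as a term these were -1.65 (adjusted p = 0.000874) and -2.05 (adjusted p = 0.042). RAPGEF2, a Rap exchange factor of the same family, rose by 0.53 ± 0.12 (adjusted p = 0.000558; 0.70 with the set as a term).

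The CRTC coactivators moved in different directions. CRTC3 rose from 10.4 ± 0.410 CPM in control to 22.9, 22.2 and 24.6 CPM at 100 µM and 30.7, 31.2 and 34.9 CPM at 1000 µM (log2 change 1.64 ± 0.13, adjusted p = 2.21e-09; 1.86 with the set as a term), while CRTC2 fell as described. CRTC1 measured 23.0 ± 3.62 CPM in control and 8.52, 7.37 and 21.2 CPM at 1000 µM (-0.91 ± 0.32, adjusted p = 0.023; -0.70 and adjusted p = 0.0288 with the set as a term), so its fall was in the set B libraries and not in the set C library. CREB3L3, a liver transcription factor of the endoplasmic reticulum, had the same shape, at 53.2 ± 4.56 CPM in control and 23.8, 24.3 and 47.8 CPM at 1000 µM (-0.74 ± 0.25, adjusted p = 0.0168; -0.31 and adjusted p = 0.247 with the set as a term).

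Of 10 regulators of SIKs and CRTCs, 4 were higher and 2 lower at 1000 µM, where 57.6% of all features were called. In the fit with the set term 1 was higher and 3 lower (38% of all features). TRIB3, a pseudokinase that binds AKT and COP1, rose from 132 ± 18.8 CPM in control to 379.6, 361 and 466 CPM (log2 change 1.61 ± 0.12, adjusted p = 1.63e-09; 1.45 with the set as a term). PPP3R1, the regulatory subunit of the phosphatase calcineurin that acts on CRTCs, rose by 0.84 ± 0.13 (adjusted p = 1.74e-05; adjusted p = 0.159 with the set as a term). The kinase that activates SIKs, STK11 (LKB1), fell by 0.40 on the log2 scale (adjusted p = 0.00482) and its partner STRADA by 0.79 (adjusted p = 2.9e-05), while the scaffold CAB39 (MO25) rose by 0.34 ± 0.07 (adjusted p = 0.000465), but was not called with the set as a term (0.32, adjusted p = 0.0561). In that fit STK11 was at -0.61 (adjusted p = 0.0141) and STRADA at -0.76 (adjusted p = 0.00142). At 100 µM CAB39L was lower (-0.77 ± 0.13) and STRADB higher (0.65 ± 0.13), and at 1000 µM neither was called. CAB39L kept its call at 100 µM with the set as a term (-0.73, adjusted p = 0.0119). STRADB, in the same fit, was not called at 100 µM (0.21, adjusted p = 0.489) and was lower at 1000 µM (-0.48, adjusted p = 0.0361). None of the 3 class IIa histone deacetylases tested, which are further SIK substrates, was called at 1000 µM, against 57.6% of all features; HDAC7 was higher at 100 µM (0.46 ± 0.15), but not called with the set as a term (0.14, adjusted p = 0.764).

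Of 14 known CREB target genes, 12 were called at 1000 µM, 7 higher and 5 lower, against 57.6% of all features (28.5% higher and 29.1% lower). With the set as a term 9 were called, 6 higher and 3 lower, against 38% of all features. Of the 14 targets, PPARGC1A, PCK1 and G6PC1 were picked by name as classic liver targets of CREB and CRTC2. All 3 rose at 1000 µM. TAT, a further liver gene among the targets, rose by 0.205 ± 0.086 there (adjusted p = 0.0482) and was not called with the set as a term (adjusted p = 0.0669). PPARGC1A, a coactivator of gluconeogenesis, went from 18.0 ± 1.53 CPM in control to 75.1, 77.6 and 62.7 CPM, and at 100 µM was 15.6, 17.0 and 17.9 CPM. PCK1, which encodes the cytosolic gluconeogenic enzyme PEPCK, went from 8.20 ± 0.951 CPM to 19.95, 21.3 and 20.7 CPM. G6PC1, the glucose-6-phosphatase subunit, went from 0.487 ± 0.115 CPM to 9.19, 8.82 and 7.55 CPM. Their log2 fold changes at 1000 µM were 2.0 ± 0.12, 1.33 ± 0.11 and 4.14 ± 0.22 (adjusted p = 7.82e-11, 2.94e-09 and 1.55e-11), and none of the 3 was called at 100 µM. All 3 were called with the set as a term as well (2.18, 1.47 and 3.88).

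IGFBP1, a secreted binding protein of insulin-like growth factors, rose most in the list in the fit without the set term. It went from 104 ± 9.52 CPM in control to 2931, 2932 and 4065 CPM (31.8-fold, adjusted p = 1.79e-14), a log2 change of 4.99. With the set as a term its value was 4.55, below that of SIK1B given above. Other CREB targets fell. JUNB, an AP-1 subunit, went from 26.5 ± 1.58 CPM to 9.80, 11.2 and 12.7 CPM (log2 change -1.24 ± 0.18, adjusted p = 8.44e-06; -0.74 and adjusted p = 0.0498 with the set as a term), and the phosphatase gene DUSP1 from 46.1 ± 4.15 CPM to 21.4, 19.6 and 26.3 CPM (-1.04 ± 0.16, adjusted p = 1.24e-05; adjusted p = 0.064 with the set as a term). CITED2, a CBP-binding regulator, went from 40.1 ± 2.26 CPM to 10.3, 10.4 and 24.4 CPM (-1.43 ± 0.30, adjusted p = 0.000562; -0.995 and adjusted p = 0.00249 with the set as a term). TAT, which encodes the liver enzyme tyrosine aminotransferase, was at 11.6 ± 0.129 CPM in control and 5.14, 5.52 and 4.90 CPM at 100 µM (-1.15 ± 0.09, adjusted p = 7.65e-09; -0.98 with the set as a term), but at 13.5, 12.9 and 13.6 CPM at 1000 µM. The CREB targets therefore changed in both directions at 1000 µM. IGFBP1 was called higher at 100 µM as well (1.08 ± 0.13, adjusted p = 2.48e-06), but not with the set as a term (adjusted p = 0.0553). JUNB (-1.495 ± 0.18, adjusted p = 2.21e-06) and DUSP1 (-1.07 ± 0.16, adjusted p = 1.82e-05) were lower at 100 µM too. With the set as a term JUNB kept that call (-0.93, adjusted p = 0.0373) and DUSP1 lost it (-0.655, adjusted p = 0.104). CITED2 was not called at 100 µM (adjusted p = 0.645).

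**Figure D5:**
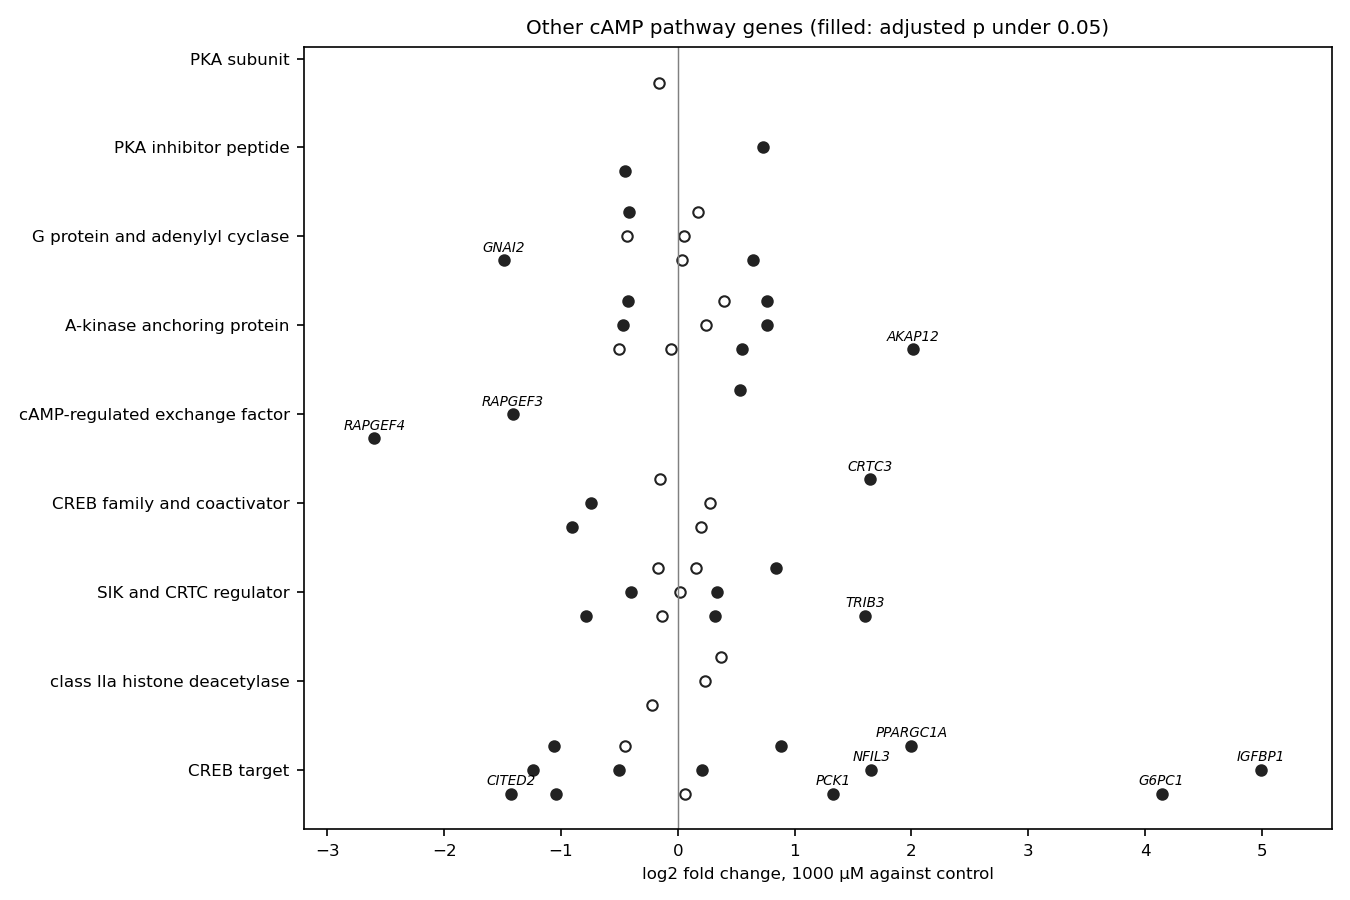
Log2 fold changes at 1000 µM against control (x axis) of the tested pathway genes outside the main set, by role class (y axis; points are offset vertically for legibility); filled points passed an adjusted p of 0.05, and genes beyond 1.3 in size are labelled. IGFBP1 (4.99) and G6PC1 (4.14) are the highest, and RAPGEF4 (-2.60, from counts near the floor) and GNAI2 (-1.49) the lowest.

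The features whose log2 CPM followed the members most closely over the 21 libraries were listed as a description, out of 10872 features with a symbol and at least 5 CPM on average. The libraries share doses and sets, so high values are common. SIK1 was followed most closely by SLC25A25 (Pearson r = 0.959), BBC3 (0.954) and COL16A1 (0.947), with r of 0.818 to 0.854 once the set means were removed. CREM was followed by DDX59 (0.978), TDRD3 (0.977) and IL18 (0.977), with r of 0.909 to 0.916 after removal of the set means. PRKACA was followed by CD68 (0.977) and PSMB2 (0.975), with r of 0.986 and 0.963 after that removal. As SIK1 counts depend on the division with SIK1B, its list describes the deposited SIK1 counts only.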

How the data were processed

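The authors deposited a table of gene counts per feature, of which the 21 libraries of the 24 h exposure were used; another 21 per-sample columns stayed out. Per the submitters' processing notes, HISAT2, DESeq2 and GRCh38 were named without versions or roles; the counter and its use of strand are not given in the sources used here, so reads of overlapping antisense genes cannot be told apart. Symbols came from a table of Ensembl identifiers (24852 features) and GENCODE 29 (7501 more). Counts were fitted in edgeR 4.0.16 (R 4.3.3): TMM scaling, filterByExpr by group, 1 robust quasi-likelihood fit with a mean per group, and Benjamini-Hochberg adjustment over 17951 features at 0.05. CPM used TMM-scaled totals; exon lengths were GENCODE 29 unions. Library sets came from average-linkage clustering of 13 mitochondrial mRNAs. Alternatives were DESeq2 1.42.0, limma-voom 3.58.1, other filters and scaling, a replicate block, a library set term, subsets of libraries and each library left out. The fit was tested on simulated data.

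The members and gene lists were chosen with earlier results of these data known. Named in the text are all 10 members, SIK1B, per role class up to 3 list genes called higher and 3 lower at 1000 µM and 2 at 100 µM by smallest p, PPARGC1A, PCK1 and G6PC1, and the 3 features most correlated with each of SIK1, CREM and PRKACA, of which 1 is not reported here. Promoters were read from RefSeq entries, 250 bases upstream only. The labels call the replicates biological and say no more of their cultures; p-values measure the spread between these libraries.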

Additional observations from a re-analysis of the deposited data

How the results depend on the processing

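Over the alternatives run, single-gene log2 fold changes of the 10 genes stayed on the same side of the threshold in 2379 cases, lost the call in 42 and gained it in 17. In 2 further cases the direction turned with a call in 1 of the fits. Of the 2379, 41 changed sign while called in neither fit, 27 of them with 1 library left out. With the set term these were, at 100 µM, PRKACA (0.107 to -0.116) and SIK3 (-0.061 to 0.157), at 1000 µM PRKACB (0.146 to -0.104), at 10 µM PRKACA (-0.058 to 0.086), SIK1 (0.055 to -0.159), SIK3 (-0.129 to 0.182) and CREB1 (-0.016 to 0.107), and at 1 µM PRKAR2A (0.018 to -0.050) and SIK3 (-0.078 to 0.019). Within set B, the uncalled step from 100 to 1000 µM was -0.105 for SIK1 (0.501 over all libraries) and -0.132 for CRTC2 (0.010). The 2 turns with a call in 1 fit were PRKAR1A at 100 µM with the library set as a term (0.077 against -0.330) and CRTC2 from 100 to 1000 µM, not called over all libraries and called without replicate 3 of 1000 µM (-0.356 against 0.010, and up to 0.170 with another library left out); for both the cause was not tested. The count of the 10 genes called at 10 µM was 0 with the library set as a term. For the wider list, the count at 0.01 µM was 1 with DESeq2, 5 with the set term and 1 within set A; at 1 µM it was 1 with DESeq2 and 1 with a mean of at least 5 CPM; at 10 µM it was 7 without the filter and 0 with the set term; at 100 µM it was 10 with the set term. With 1 library left out at a time, the 10 genes gave 0 to 3 calls at 10 µM (0 without replicate 3 of 10 µM), between 5 and 7 at 100 µM, between 7 and 9 at 1000 µM, 5 to 7 for 1000 against 100 µM, 6 to 9 for 1000 against 10 µM, and 10 in the joint test each time. The wider list gave 0 to 1 at 0.01 µM and at 1 µM (1 without replicate 3 of 1000 µM), between 3 and 12 at 10 µM, between 18 and 25 at 100 µM, between 30 and 38 at 1000 µM and 27 to 36 for 1000 against 10 µM.

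Replicate numbers did not pair the libraries: over 21 pairs of groups the mean correlation of same-numbered deviations ran from -0.108 to 0.152, above 0.1 in 1. With a replicate block the 10 genes gave 2, 6 and 8 calls at 10, 100 and 1000 µM, and the wider list 9, 22 and 34. By annotated position, at most 8% of the exon bases of any of the 10 genes overlapped exons of another gene (PRKAR1A). This share leaves out sequence held in common with copies elsewhere, as between SIK1 and SIK1B. PRKACB, at about 11 to 16 CPM on average per group, was the least deeply counted of the 10.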

Other observations

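Other genes of the wider list, picked here after their values were seen, showed further differences. GNAS, which encodes the stimulatory G protein subunit, was at 789.5 ± 30.3 CPM (SD, n = 3) in control, at 437 and 429.7 CPM in the set B libraries of 1000 µM and at 886 CPM in the set C library; its log2 difference was -0.44 ± 0.20 (adjusted p = 0.0697), and -0.65 (adjusted p = 0.00188) with the library set as a term. NFIL3, a circadian bZIP repressor, rose from 28.8 ± 4.38 CPM in control to 81.4, 86.0 and 105 CPM at 1000 µM (log2 change 1.66 ± 0.11, adjusted p = 1.74e-10; 1.5 with the set as a term). EGR1, an immediate early factor, rose to 38.1, 33.9 and 50.3 CPM from 22.0 ± 6.22 CPM (0.89 ± 0.23, adjusted p = 0.00339; 1.72 and adjusted p = 0.00127 with the set as a term), while FOS fell from 46.1 ± 4.73 CPM to 22.4, 17.6 and 26.4 CPM (-1.06 ± 0.33, adjusted p = 0.0111; adjusted p = 0.739 with the set as a term).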
